A study of Macaca mulatta with 13 samples.

Results

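Peripheral blood mononuclear cells of 4 surrogate-peer reared rhesus macaques were compared with those of 5 maternally reared ones, which are 9 of the 13 arrays of the series. The members were the arrays whose rearing label is surrogate-peer or maternal; the arrays of peer reared animals entered no comparison here. All animals were 4 months old. Total RNA of each sample was hybridised to 1 Affymetrix rhesus genome array, and every value below is a log2 expression level per probe set. The series asks how expression in blood leukocytes differs between infants reared under different social conditions. The samples have different titles, but the labels do not state that each came from a separate animal, so the p-values measure the spread between these samples. The arrays are called maternal 1 to 5 and surrogate-peer 1 to 4, numbers that only name them.

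Surrogate-peer rearing is a nursery condition used in primate research, in which an infant grows up without its mother, is housed with an inanimate surrogate and meets other infants for limited periods of play. Mononuclear cells of blood are mainly T cells, B cells, natural killer (NK) cells and monocytes. B cells carry an antigen receptor made of immunoglobulin and the CD79A and CD79B chains, which signals through kinases such as LYN, SYK and BTK, while NK and cytotoxic T cells kill targets with granzymes. In RNA from mixed cells, fewer cells of a type and less RNA per cell cannot be told apart.

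The markers of the labelled cell fraction were present. On the log2 scale the monocyte receptor CD14 read 10.51 to 12.78, the T cell factor TCF7 11.70 to 13.18 and the B cell membrane protein MS4A1 (CD20) 10.27 to 12.97 over the 9 arrays. Transcripts of other blood elements were present as well, with the platelet chemokine PPBP at 12.73 to 14.26, the neutrophil granule peptide CAMP at 11.37 to 13.08 and the beta-globin HBB at 9.74 to 12.18. CD3D, CD3E and PAX5 were not among the tested probe sets with 1 gene symbol and are not described.

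Array measures differed between the groups. The log2 ratio of 3' to 5' signal of the actin and GAPDH control probe sets, a measure of RNA integrity and labelling, was 1.86 ± 0.281 (SD, n = 5) in maternal and 1.38 ± 0.0591 (SD, n = 4) in surrogate-peer arrays, without overlap in their ranges of 1.55 to 2.23 and 1.33 to 1.46 (exact two-sided permutation p = 0.0238, adjusted over 6 measures 0.0357). The SD of all values of an array, 2.10 to 2.12 against 2.13 to 2.16, and the array median, 6.05 to 6.06 against 6.0 to 6.04, did not overlap either (exact permutation p = 0.00794 for each, the smallest this design can give, adjusted 0.0238). The number in the sample title averaged 42.8 in maternal and 19.8 in surrogate-peer arrays (exact permutation p = 0.0238, adjusted 0.0357). Its meaning is not stated in the labels. The hybridisation controls BioB and Cre gave exact permutation p-values of 0.651 and 0.643. The part of these measures in the differences below was not tested beyond the alternatives given in the closing section.

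Of 26352 tested probe sets 0 passed an adjusted limma p of 0.05 (0% called, Benjamini-Hochberg). The smallest adjusted p was 0.116, at the probe set MmugDNA.580.1.S1_at, which has no gene symbol here. It read 7.47, 7.50, 7.20, 7.11 and 8.28 in maternal arrays 1 to 5 and 5.42, 5.14, 5.42 and 5.68 in surrogate-peer arrays 1 to 4. All 4 surrogate-peer values lay below all 5 maternal ones, and the difference was -2.09 ± 0.23 (SE). The surrogate-peer values also lay below 6.04, the filter on mean level, so this probe set was tested only through the arrays in which it was higher. Without adjustment 4152 probe sets, or 15.8%, had a limma p under 0.05, of which 2908 (11.0%) were higher and 1244 (4.72%) lower in surrogate-peer samples. Of all tested probe sets 52.2% had a higher and 47.8% a lower surrogate-peer mean. In 1434 probe sets (5.44%) the groups did not overlap, 781 (2.96%) with all surrogate-peer values higher and 653 (2.48%) with all lower.

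The balance of directions depended on how arrays were scaled. Of the probe sets with groups that did not overlap, 54.5% were higher in surrogate-peer samples as deposited, 26.4% after each array was centred on its median and 35.5% after quantile normalization. Of those with an unadjusted p under 0.05, the shares were 70.0%, 45.3% and 53.3%. The median fold change over tested probe sets was 0.013, -0.049 and -0.020 in these settings (log2). The lists below are therefore to be read against the 9657 named genes, each at its brightest tested probe set. Over these genes 50.8% had a higher and 49.2% a lower surrogate-peer mean, and the median log2 fold change was 0.0044. An unadjusted limma p under 0.05 with a higher surrogate-peer mean occurred in 10.3% and with a lower mean in 5.28%. Such genes are called nominally higher or lower; none of them passed after adjustment. Groups lay apart in 5.51%, with all surrogate-peer values higher in 2.69% and with all lower in 2.82%. These shares are the background for the counts of every list below. Fewer arrays overlap less easily: all surrogate-peer values were lower in 272 of the 9657 genes with all arrays, in 728 without maternal arrays 2 and 5 and in 481 without surrogate-peer array 1, while 510, 553 and 410 were nominally lower.

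B cell genes were lower in the surrogate-peer samples than in the maternal ones. Of 18 measured B cell markers 17 had a lower surrogate-peer mean, 11 were nominally lower (5.28% over all named genes) and 6 lay wholly below the maternal range (2.82% over all named genes). The median log2 fold change was -0.77, with 0.0044 over all named genes. No B cell gene passed the adjusted limma test, in which the smallest adjusted p of any probe set with 1 symbol was 0.203. Of the 35 tested probe sets of these 18 genes, 32 were negative, 20 nominally lower and 12 wholly below the maternal range.

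**Figure D1:**
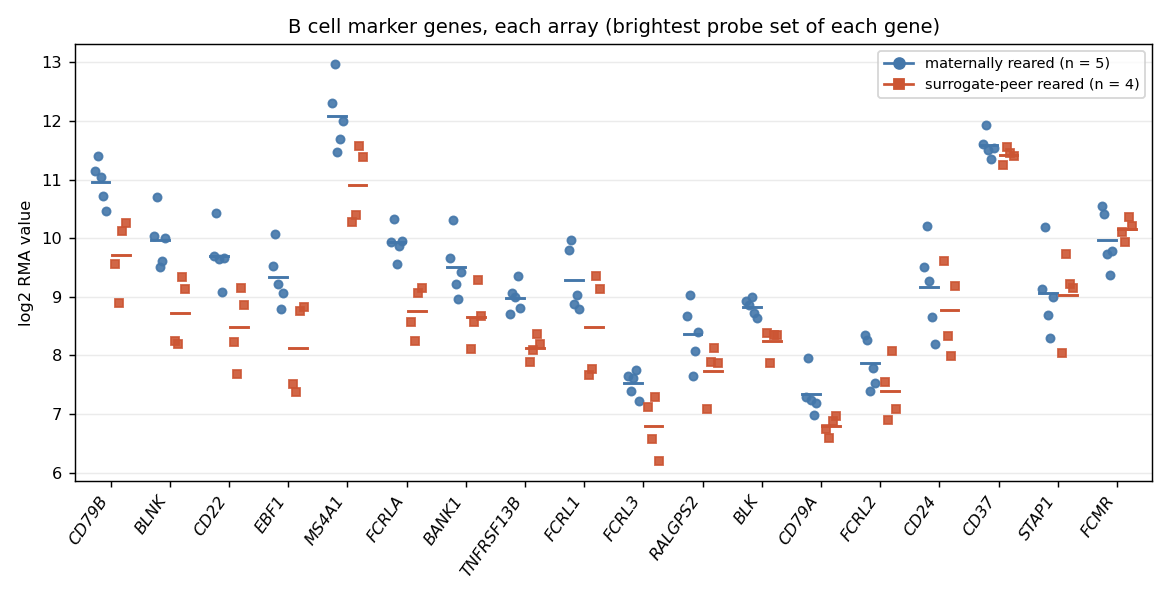
Log2 RMA value of the 18 measured B cell markers in each of the 5 maternal (circles) and 4 surrogate-peer (squares) arrays, with bars for group means and genes ordered by fold change. CD79B, BLNK, FCRLA, TNFRSF13B, BLK and CD79A have no overlap between groups, while STAP1 and FCMR differ by -0.02 and 0.18.

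The chains and surface proteins of the B cell receptor complex came first. CD79B, which carries the receptor's signal into the cell, read 11.14, 11.40, 11.04, 10.72 and 10.47 in maternal arrays 1 to 5 and 9.56, 8.89, 10.12 and 10.25 in surrogate-peer arrays 1 to 4. Every surrogate-peer value was below every maternal value, with surrogate-peer arrays 1 and 2 the lowest. The difference was -1.25 ± 0.29 (SE; limma adjusted p = 0.228), or 2.38-fold, at this probe set and -0.21 at the other tested probe set of CD79B. Its partner CD79A was 7.30, 7.96, 7.24, 6.98 and 7.19 in maternal and 6.74, 6.59, 6.89 and 6.96 in surrogate-peer arrays, again without overlap (-0.54 ± 0.18, SE).

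MS4A1, the CD20 protein of B cell membranes, has 4 tested probe sets, all lower in surrogate-peer samples, by -1.65 to -0.87. At the brightest it was 12.31, 12.97, 11.47, 11.70 and 11.999 in maternal and 10.27, 10.39, 11.57 and 11.38 in surrogate-peer arrays. Surrogate-peer array 3 overlapped the lowest maternal array there, and the difference was -1.19 ± 0.36 (SE; adjusted p = 0.239). At another probe set of MS4A1 the levels were 11.25 ± 0.37 (SD, n = 5) and 9.60 ± 0.64 (SD, n = 4) without overlap (-1.65 ± 0.29, SE, adjusted p = 0.203), a 3.13-fold lower level. CD22, an inhibitory coreceptor, read 9.70, 10.42, 9.64, 9.09 and 9.67 in maternal and 8.22, 7.68, 9.15 and 8.86 in surrogate-peer arrays (-1.23 ± 0.33, SE). Surrogate-peer array 3 lay just above the lowest maternal value for CD22.

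Adaptors, kinases and transcription factors of the lineage had the same direction. BLNK, the adaptor that links SYK to downstream enzymes, was 10.03, 10.70, 9.50, 9.60 and 10.01 in maternal and 8.24, 8.20, 9.33 and 9.13 in surrogate-peer arrays. These groups did not overlap, and the difference was -1.24 ± 0.31 (SE; adjusted p = 0.228). BLK, a SRC family kinase of B cells, was 8.93, 8.86, 8.99, 8.72 and 8.64 against 8.38, 7.88, 8.35 and 8.36, a smaller difference of -0.59 ± 0.13 (SE) but also without overlap. EBF1, a factor that specifies the B lineage, was 9.53, 10.07, 9.22, 8.79 and 9.06 against 7.52, 7.38, 8.75 and 8.83 (-1.21 ± 0.37, SE). For EBF1 surrogate-peer array 4 reached the lowest maternal array, and its 2 tested probe sets were both nominally lower.

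Of the receptors that modulate B cells, TNFRSF13B, the TACI receptor for BAFF and APRIL, was 8.70, 9.06, 8.99, 9.35 and 8.82 in maternal and 7.89, 8.10, 8.36 and 8.19 in surrogate-peer arrays. The groups did not overlap (-0.85 ± 0.15, SE, adjusted p = 0.203), while the smallest difference among its 3 probe sets was -0.0033. FCRLA, an Fc receptor-like protein of B cells, averaged 9.93 ± 0.28 (SD, n = 5) and 8.76 ± 0.43 (SD, n = 4) without overlap (-1.17 ± 0.21, SE). BANK1, a B cell scaffold protein, differed by -0.86 ± 0.29 and FCRL3 by -0.73 ± 0.22 (SE), both with overlap. FCRL1 (-0.82 ± 0.41), RALGPS2 (-0.62 ± 0.29), FCRL2 (-0.47 ± 0.28), CD24 (-0.38 ± 0.44) and CD37 (-0.17 ± 0.12) had lower means but were not nominally lower. STAP1 differed by -0.02 ± 0.41 and FCMR, the receptor for the Fc part of IgM, by 0.18 ± 0.23 (SE).

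The B cell score of an array, the average deviation of the 18 genes from their own means over the 9 arrays on the log2 scale, was 0.49, 0.88, 0.11, 0.03 and 0.11 in maternal arrays 1 to 5 and -0.65, -0.72, -0.05 and -0.20 in surrogate-peer arrays 1 to 4. Scores did not overlap, but surrogate-peer array 3 lay only just below maternal array 4. The groups differed in mean score by -0.73 on the log2 scale, and by -0.62 without maternal arrays 2 and 5. In that setting 10 of 18 genes were nominally lower and 7 lay wholly below, against 11 and 6 with all arrays. Of the 9657 named genes 553 were then nominally lower and 728 wholly below, against 510 and 272 with all arrays. With any single array left out the difference in mean score was between -0.85 and -0.59. Other cell type markers differed in the same samples, with T cell markers higher and NK markers lower in surrogate-peer samples, and their part in the B cell difference was not tested.

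Genes of B cell receptor signalling, most of them shared with myeloid cells, were lower in 14 of 15 measured cases, with a median of -0.40, 6 nominally lower (5.28% over all named genes) and 3 wholly below (2.82%). CD180, a Toll-like receptor homologue of B cells, was 6.60, 6.56, 6.80, 6.55 and 6.66 in maternal and 6.30, 6.18, 5.97 and 6.06 in surrogate-peer arrays (-0.50 ± 0.10, SE, adjusted p = 0.203). All 5 maternal values lay above every surrogate-peer value. PLCG2, the phospholipase downstream of the receptor, also lay apart (-0.59 ± 0.20), as did the inositol phosphatase INPP5D (-0.26 ± 0.08, SE). The kinases SYK (-0.79 ± 0.25) and LYN (-0.66 ± 0.29) and the adaptor PIK3AP1 (-0.67 ± 0.26, SE) were nominally lower with overlap. LYN was -0.28 and PIK3AP1 -0.28 without maternal arrays 2 and 5, and 2 genes of the list were then nominally lower. Monocyte markers were highest in the same maternal arrays 2 and 5.

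Of 14 genes of MHC class II presentation 11 were lower, 3 nominally (5.28% over all named genes), and 0 lay apart (5.51%), with a median of -0.17. MAMU-DQB1, a class II beta chain, was 11.07, 12.43, 9.35, 10.67 and 11.55 in maternal and 9.63, 9.12, 8.72 and 8.39 in surrogate-peer arrays (-2.05 ± 0.54, SE). The gene is polymorphic and has close relatives, so its probe signal can differ with the allele carried as well as with the level. MAMU-DOB, which modulates peptide loading in B cells, differed by -0.94 ± 0.42, and by -0.52 without surrogate-peer array 2. IFI30, a lysosomal reductase of antigen processing, differed by -0.69 ± 0.25 (SE), and by -0.34 without maternal arrays 2 and 5. MAMU-DRA, the invariant DR alpha chain, differed by 0.04 ± 0.30 and the invariant chain CD74 by -0.32 ± 0.21 (SE).

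Among 11 plasma cell genes 9 were lower (all 11 after centring) and 2 wholly below (2.82% over all named genes), with a median of -0.16. PRDM1, the factor that drives plasma cell differentiation and is also expressed in effector T and NK cells, was 9.84, 9.25, 9.32, 9.96 and 9.90 in maternal and 8.998, 8.68, 8.93 and 8.78 in surrogate-peer arrays (-0.81 ± 0.17, SE, adjusted p = 0.217). MZB1, a chaperone of immunoglobulin assembly, was 8.76, 9.19, 9.48, 9.92 and 8.59 against 7.91, 8.22, 8.56 and 8.20 (-0.96 ± 0.26, SE). Both genes had 2 tested probe sets, all nominally lower, and for both the groups did not overlap. The joining chain JCHAIN differed by 0.02 ± 0.24 and the factor XBP1 by -0.19 ± 0.38 (SE). With maternal arrays 2 and 5 left out there were 5 nominally lower plasma cell genes and 5 wholly below, against 3 and 2 with all arrays. Over all named genes those wholly below went from 272 to 728 in the same setting.

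Cytotoxic genes were mixed, with lower means of granzymes B and H and close means of granzyme A. Of 18 measured NK and cytotoxic markers 13 were lower, 6 of them nominally (5.28% over all named genes) and 3 wholly below the maternal range (2.82%), 1 was nominally higher, and the median was -0.48. GZMB was 13.01, 12.37, 12.68, 12.82 and 12.22 in maternal and 12.10, 10.67, 10.77 and 11.21 in surrogate-peer arrays. Surrogate-peer array 1 lay just under the lowest maternal array and the other surrogate-peer arrays about a log2 unit or more below it. The difference was -1.43 ± 0.29 (SE; adjusted p = 0.203), or 2.69-fold.

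GZMH, the gene of granzyme H, was 12.41, 11.64, 12.24, 11.47 and 11.44 against 11.38, 10.14, 9.68 and 10.36 (-1.45 ± 0.34, SE, adjusted p = 0.228), with the same position of surrogate-peer array 1. CST7, an inhibitor of granule cathepsins, was 9.75, 9.54, 9.71, 9.79 and 10.08 against 9.37, 9.30, 8.48 and 9.13 (-0.71 ± 0.19, SE) without overlap. The granule protein NKG7 (-0.94 ± 0.30), the NK receptor KLRF1 (-0.76 ± 0.30) and the IgG receptor FCGR3 (-1.08 ± 0.36, SE) were nominally lower with overlap, and FCGR3 was -0.68 without maternal arrays 2 and 5. GZMA differed by 0.08 ± 0.13, and the adhesion molecule NCAM1 (CD56) was nominally higher by 0.41 ± 0.17 (SE) at its brightest probe set. The 5 tested probe sets of NCAM1 ran from -0.009 to 0.41, 1 of them with an unadjusted limma p under 0.05.

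Surrogate-peer array 1 had an NK score of 0.33, within the maternal scores of 0.56, 0.08, 0.46, 0.35 and -0.22, while surrogate-peer arrays 2 to 4 had -0.42, -0.65 and -0.48. Without that array 8 of 18 markers were nominally lower and 6 wholly below, with a median of -0.69. Without maternal arrays 2 and 5 the counts were 9 and 5 and the median -0.70. Over all named genes those wholly below went from 272 to 481 and 728 in these settings. Those nominally lower went from 510 to 410 and 553. With the number in the sample titles as a covariate the NK list difference of -0.55 turned to 0.19, and with the 3' to 5' ratio it was -0.079. Single arrays set the level of GNLY and KLRC1, which are named after their values were seen. Granulysin (GNLY) read 6.63 in maternal array 5 and 6.05 in surrogate-peer array 4 against 10.80 to 13.23 in the other 7, and the NK receptor KLRC1 read 4.08 in surrogate-peer array 3 against 9.01 to 10.48 elsewhere. Both genes are among the 18 markers, so they lower the NK scores of those arrays and enter the list difference. Scores without GNLY and KLRC1 were not computed.

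T cell genes had higher means in surrogate-peer samples, and the difference was smaller without maternal arrays 2 and 5. All 12 measured T cell markers had a higher surrogate-peer mean (11 after centring), 6 were nominally higher (10.3% over all named genes), 0 lay apart (2.69% over all named genes) and the median was 0.55. The coreceptor CD8A was 11.36, 10.67, 11.35, 11.28 and 10.61 in maternal and 12.02, 11.14, 11.87 and 11.54 in surrogate-peer arrays (0.59 ± 0.23, SE, adjusted p = 0.282). Maternal arrays 2 and 5 were the lowest for CD8A, and the difference without them was 0.31. The T cell factor TCF7 (0.62 ± 0.27, SE) and the homing receptor CCR7 (0.72 ± 0.30, SE) gave 0.22 and 0.27 without those arrays. With them left out, 1 of the 12 genes was nominally higher and the median was 0.21.

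BCL11B, a T lineage factor, was 6.23, 5.80, 5.84, 5.64 and 5.83 in maternal and 6.21, 6.65, 7.25 and 6.38 in surrogate-peer arrays (0.75 ± 0.21, SE, adjusted p = 0.231). Surrogate-peer array 1 lay just below maternal array 1 and the other 3 above all maternal arrays. Except for array 1, the maternal values lay below 6.04, the filter on mean level, and every surrogate-peer value lay above it. BCL11B was therefore tested mainly through the arrays in which it was high. TRAT1, an adaptor of the T cell receptor, differed by 0.69 ± 0.26 and CD8B by 0.65 ± 0.25 (SE), the latter by 0.37 without maternal arrays 2 and 5. CD4 differed by 0.20 ± 0.10 and CD28, the costimulatory receptor, by 0.01 ± 0.10 (SE).

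Of 15 T cell activation genes 13 were higher, 3 nominally (10.3% over all named genes) and 1 wholly above (2.69%). The median was 0.40, or 0.16 without maternal arrays 2 and 5. EGR2, a zinc finger factor induced by antigen receptor signalling, was 5.98, 5.63, 5.27, 5.29 and 5.80 in maternal and 5.85, 8.59, 9.38 and 8.74 in surrogate-peer arrays. Surrogate-peer array 1 was at the maternal level and the other 3 were over 2 log2 units above it. The difference over all arrays was 2.55 ± 0.61 (SE; adjusted p = 0.228). Without surrogate-peer array 1 it was 3.31. All 5 maternal values and that array lay below 6.04, the filter on mean level, so EGR2 was tested only through the arrays in which it was high. IL23A, a cytokine subunit, was wholly above (0.52 ± 0.17), the adaptor LAT nominally higher (0.49 ± 0.18, SE), and the immediate early gene NR4A1 differed by -0.04 ± 0.12 (SE).

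CLSPN, the checkpoint adaptor claspin, had the same array pattern as EGR2. It was 6.83, 7.16, 6.58, 6.67 and 6.96 in maternal and 6.65, 9.25, 10.99 and 10.22 in surrogate-peer arrays (2.44 ± 0.72, SE, adjusted p = 0.238). Other replication genes did not share that size of difference. Of the 22 measured replication genes, which include CLSPN, 8 were higher and 14 lower, with a median of -0.03.

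The measured basophil genes, 5 of 12 listed, all had higher means in surrogate-peer samples. Of these 3 were nominally higher (10.3% over all named genes) and 1 wholly above (2.69%), with a median of 1.24. MS4A2, HDC, ENPP3, TPSAB1, IL4, CLC and PRG2 were not measured. FCER1A, the alpha chain of the high-affinity IgE receptor, was 7.48, 7.88, 8.19, 5.55 and 6.53 in maternal and 8.38, 9.17, 8.80 and 10.18 in surrogate-peer arrays. All 4 surrogate-peer values were above all maternal ones, though surrogate-peer array 1 was only 0.19 above maternal array 3. The difference was 2.01 ± 0.55 (SE; adjusted p = 0.231), or 4.02-fold. CPA3, a mast cell and basophil protease, was 6.76, 6.47, 7.17, 5.37 and 6.07 against 6.69, 7.99, 7.46 and 8.28 (1.24 ± 0.40, SE).

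The eotaxin receptor CCR3 was 8.38, 7.80, 8.82, 7.22 and 7.28 against 8.23, 10.52, 9.29 and 8.98 (1.36 ± 0.47, SE). For CPA3 and CCR3 surrogate-peer array 1 lay inside the maternal range and the other 3 above it. GATA2 differed by 0.18 ± 0.24 and KIT by 0.30 ± 0.29 (SE). The 3 tested probe sets of GATA2 ran from 0.11 to 1.04, 1 of them with an unadjusted limma p under 0.05. FCER1A is also a dendritic cell gene, and of 10 dendritic cell markers 8 were lower, with a median of -0.20; the CD1C antigen was nominally lower (-0.78 ± 0.26, SE), and -0.52 without maternal arrays 2 and 5.

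**Figure D2:**
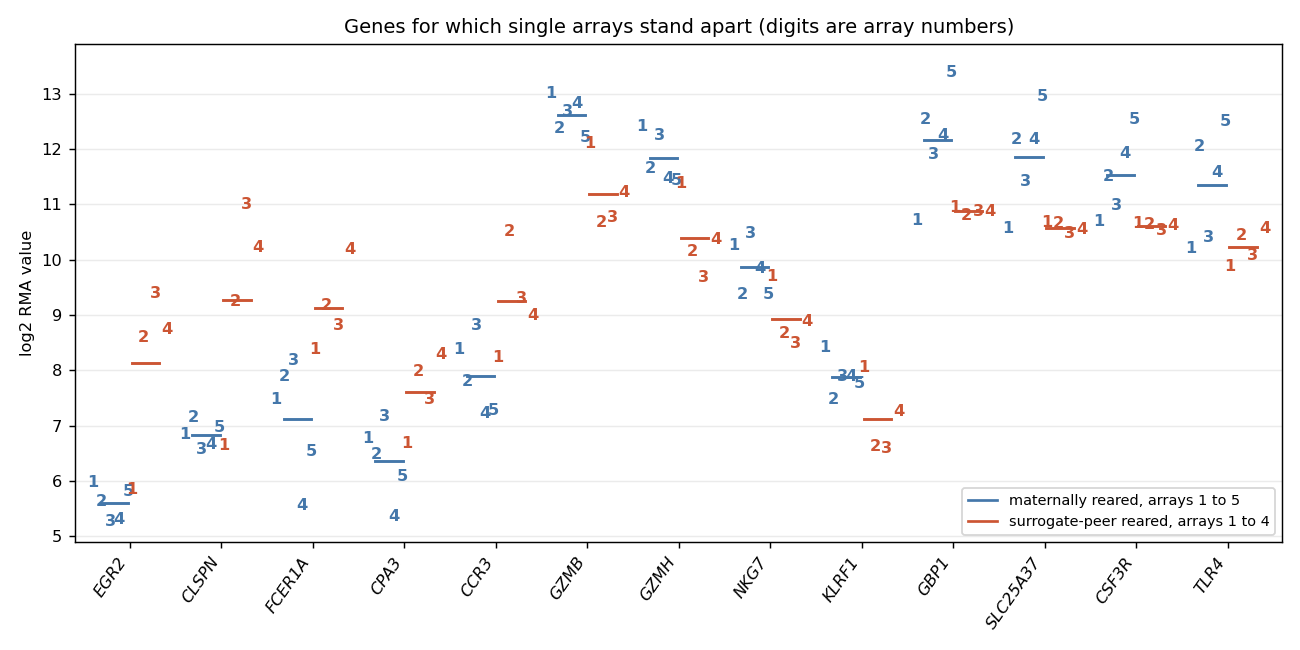
Log2 RMA value of 13 genes in each array, with the digit giving the array number within its group and bars for group means. Surrogate-peer array 1 lies at maternal levels for EGR2 and CLSPN and nearest to them for GZMB and GZMH, and maternal array 5 is the highest for GBP1, SLC25A37, CSF3R and TLR4.

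Monocyte genes did not differ in 1 direction. Of 22 measured markers 15 were lower and 7 higher, with a median of -0.30. Nominally lower were 4 (5.28% over all named genes) and wholly below 0 (2.82%). Without maternal arrays 2 and 5 there were 13 higher and 9 lower with a median of 0.13, so the sign of the median rested on those arrays. The list difference of -0.28 was -1.07 with the 3' to 5' ratio and -0.85 with the title number as a covariate. CD14 was 10.74, 12.33, 10.88, 12.74 and 12.78 in maternal and 11.07, 11.55, 10.51 and 11.21 in surrogate-peer arrays (-0.81 ± 0.47, SE). The lipopolysaccharide receptor TLR4 was nominally lower (-1.11 ± 0.46, SE), and -0.49 without those 2 arrays. MS4A7, a membrane protein of monocytes and macrophages, differed by -1.32 ± 0.41 and by -0.76 without them. The transcription factor CEBPB differed by -0.66 ± 0.25 (SE), and by -0.37 without them, while the alarmins S100A8 and S100A9 differed by 0.18 ± 0.35 and 0.09 ± 0.39 (SE).

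Interferon genes were spread widely among maternal arrays and narrowly among surrogate-peer arrays. The score of 25 type I interferon genes was -0.50, 1.03, -0.40, -0.17 and 1.06 in maternal and -0.29, -0.38, -0.23 and -0.12 in surrogate-peer arrays. Surrogate-peer scores lay within or just above the range of maternal arrays 1, 3 and 4 and far below maternal arrays 2 and 5. With all arrays 22 of 25 genes had lower means, 1 nominally (5.28% over all named genes), and the median was -0.41. Without maternal arrays 2 and 5 the median was 0.11, with 14 higher and 11 lower. The list difference of -0.46 was -1.56 with the 3' to 5' ratio and -1.18 with the title number as a covariate. The antiviral gene IFIT1 was 7.83, 11.997, 8.83, 9.67 and 12.07 in maternal and 8.38, 8.21, 9.29 and 9.40 in surrogate-peer arrays (-1.26 ± 0.86, SE), named after its values were seen. ISG20, an interferon-induced exonuclease, was wholly below (-0.41 ± 0.11), and DHX58, an RNA helicase of the RIG-I family, nominally higher (0.60 ± 0.26, SE), though 0.22 without maternal arrays 2 and 5.

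All 14 measured genes of the interferon gamma response and MHC class I loading were lower, 5 nominally (5.28% over all named genes) and 2 wholly below (2.82%), with a median of -0.28. The guanylate-binding protein GBP1 was 10.70, 12.54, 11.91, 12.25 and 13.38 in maternal and 10.94, 10.80, 10.88 and 10.88 in surrogate-peer arrays. Its SD was 0.98 (n = 5) in maternal and 0.06 (n = 4) in surrogate-peer samples, and maternal array 1 was lower than every surrogate-peer array. The difference was -1.28 ± 0.43 (SE), and -0.75 without maternal arrays 2 and 5. The peptide transporter TAP2 was wholly below (-0.58 ± 0.18), with -0.34 without those arrays and -0.09 at its other probe set, and so was tapasin, TAPBP (-0.29 ± 0.09, SE). Without maternal arrays 2 and 5, 11 of the 14 were lower, 2 nominally, with a median of -0.16.

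A similar contrast of spread was seen for SLC25A37, a mitochondrial iron importer on the erythroid list, and CSF3R, the receptor for granulocyte colony-stimulating factor. SLC25A37 was 10.56, 12.18, 11.42, 12.17 and 12.94 in maternal and 10.67, 10.65, 10.47 and 10.54 in surrogate-peer arrays (-1.27 ± 0.40, SE; -0.80 without maternal arrays 2 and 5). CSF3R was 10.70, 11.51, 10.99, 11.92 and 12.54 against 10.65, 10.64, 10.52 and 10.62 (-0.92 ± 0.33, SE; -0.59 without them). The other genes of the neutrophil granule list were not nominally different, and CAMP differed by -0.12 ± 0.34 (SE). All 12 platelet markers had lower means with 0 nominally lower and a median of -0.19. The platelet median was -0.04 without maternal array 2, with 8 of 12 lower, and -0.41 without maternal array 5 or surrogate-peer array 2. The platelet score was lowest in surrogate-peer array 3, at -1.11, and the list difference turned above 0 without that array. On the erythroid list 3 of 5 genes were lower, with a median of -0.82, or -0.29 without maternal arrays 2 and 5, while HBB differed by 0.10 ± 0.49 (SE).

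**Figure D3:**
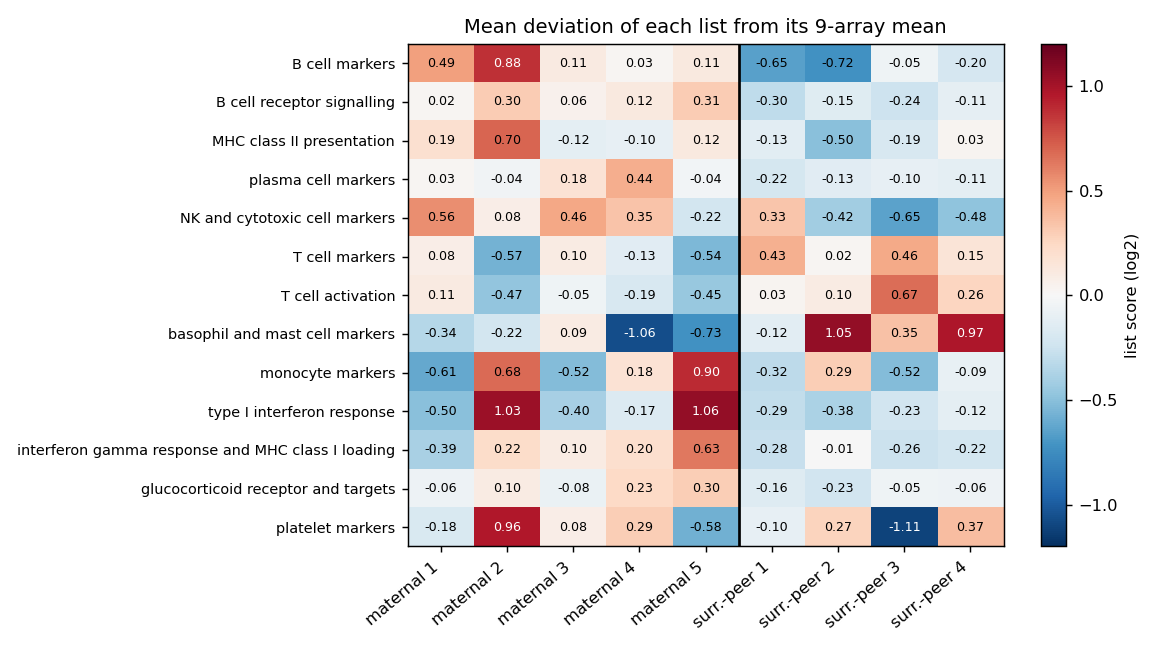
List score of 13 gene lists in each array, the average deviation of its genes from their own 9-array means on the log2 scale, from blue (lower) to red (higher). B cell, B cell receptor signalling and plasma cell scores do not overlap between groups, whereas interferon and monocyte scores are highest in maternal arrays 2 and 5.

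Inflammatory genes of the published score of social adversity had no common direction: 4 of 10 were higher and 6 lower, with a median of -0.10. FOSL2, an AP-1 subunit, was nominally lower (-1.05 ± 0.37) and so was the NF-kB subunit RELB (-0.25 ± 0.10, SE). The chemokine CXCL8 was 7.13, 8.76, 6.50, 7.81 and 9.45 in maternal and 7.03, 10.32, 10.87 and 9.31 in surrogate-peer arrays (1.45 ± 0.82, SE), and is named after its values were seen. Surrogate-peer array 1 was low for CXCL8 as for EGR2. IL1B differed by -0.67 ± 0.41 and FOS by 0.85 ± 0.65 (SE).

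Of 13 inhibitors and targets of NF-kB 8 were lower, 5 of them nominally (5.28% over all named genes) and the same number wholly below the maternal range (2.82%), with a median of -0.13. NFKBIE, an inhibitor that holds NF-kB in the cytoplasm, was 8.87, 9.01, 8.96, 9.04 and 8.98 in maternal and 8.59, 8.65, 8.58 and 8.78 in surrogate-peer arrays (-0.32 ± 0.08, SE, adjusted p = 0.228). BCL3, a nuclear protein of the same family, was 8.91, 9.30, 8.87, 9.90 and 9.78 against 8.47, 8.61, 8.23 and 8.64 (-0.86 ± 0.23, SE), with -0.10 at its other probe set. NFKBID (-0.44 ± 0.12), the maturation marker CD83 (-0.61 ± 0.20) and the chemokine CCL5 (-1.05 ± 0.35, SE) were also wholly below. CD83 was -0.39 without surrogate-peer array 2 and CCL5 -0.63 without surrogate-peer array 3. The feedback inhibitor TNFAIP3 differed by 0.04 ± 0.19 (SE) at its brightest probe set. Its 4 tested probe sets ran from -0.06 to 0.61, with 3 positive and 2 at an unadjusted limma p under 0.05.

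On the list of the glucocorticoid receptor and its targets 13 of 17 genes were lower, with a median of -0.29. Of these 6 were nominally lower (5.28% over all named genes) and 3 wholly below (2.82%). TSC22D3, the leucine zipper protein induced by glucocorticoids, was 13.69, 13.98, 13.79, 14.33 and 14.40 in maternal and 13.56, 13.28, 13.46 and 13.60 in surrogate-peer arrays (-0.56 ± 0.16, SE, adjusted p = 0.235). TXNIP, a regulator of glucose uptake, was 13.62, 13.93, 13.65, 14.06 and 14.18 against 13.34, 13.29, 13.42 and 13.56 (-0.48 ± 0.13, SE), lower at all 5 of its probe sets. The metallothionein MT2A was 11.10, 11.18, 11.11, 10.97 and 10.86 against 10.78, 10.48, 10.77 and 10.53 (-0.40 ± 0.10, SE). For these 3 genes the groups did not overlap.

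The clock gene PER1 (-0.29 ± 0.13) and ZBTB16 (-0.80 ± 0.28, SE) were nominally lower with overlap. The receptor itself, NR3C1, differed by -0.08 ± 0.14, its cochaperone FKBP5 by -0.08 ± 0.16 and DUSP1 by 0.05 ± 0.38 (SE). The 3 tested probe sets of NR3C1 ran from -0.22 to 0.35, 1 of them with an unadjusted limma p under 0.05. Leaving out maternal arrays 2 and 5, the list had 4 nominally lower genes, 5 wholly below and a median of -0.15. Among all named genes those wholly below went from 272 to 728 in that setting.

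Adrenergic and cyclic AMP genes were lower in 11 of 17 cases with a median of -0.12. The kinase subunit PRKACB (0.55 ± 0.24), the factor ATF1 (0.38 ± 0.12) and the phosphodiesterase PDE7A (0.65 ± 0.23, SE) were nominally higher, and the modulator CREM nominally lower (-0.83 ± 0.31, SE). Leaving out maternal arrays 2 and 5, these were 0.23 for PRKACB, 0.42 for PDE7A and -0.49 for CREM. Of 11 homing receptors 7 were lower, with a median of -0.07. CX3CR1, a receptor of cytotoxic cells and monocytes, was wholly below (-0.27 ± 0.09, SE), while the chemokine receptor-like CCRL2 (-1.40 ± 0.49; -0.82 without maternal arrays 2 and 5) and the selectin ligand SELPLG (-0.72 ± 0.26, SE) were nominally lower.

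**Figure D4:**
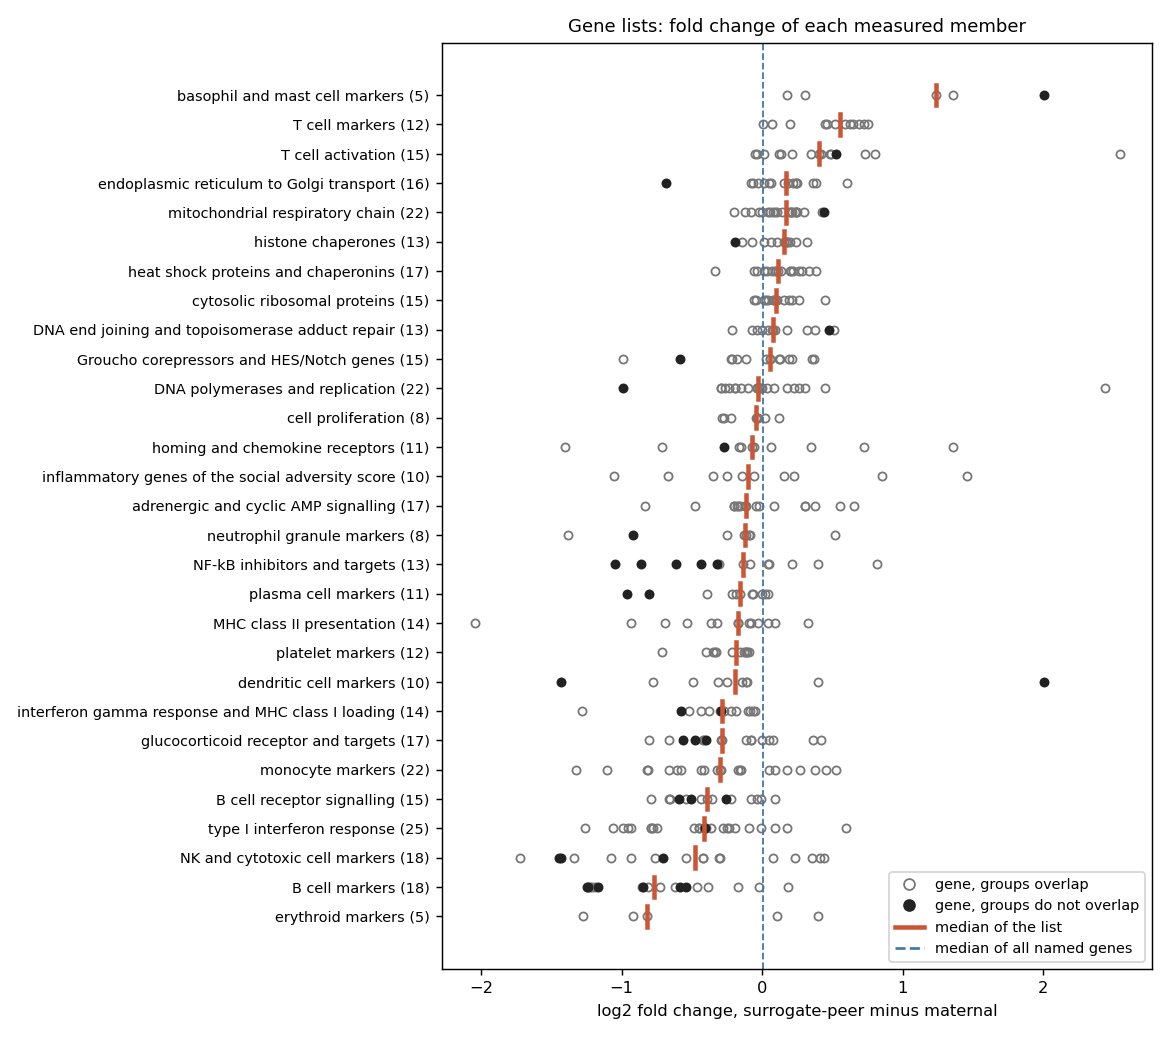
Log2 fold change, surrogate-peer minus maternal, of each measured member of the 29 gene lists (number measured in brackets), with filled points for genes whose groups do not overlap, red bars for list medians and a dashed line for the median of all 9657 named genes. The B cell list has a median of -0.77 and 6 filled points, all below 0, and the basophil list a median of 1.24.

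The genes with the smallest p-values included several outside the cell lists. HES6, a transcriptional cofactor of the HES family, was 7.53, 7.61, 7.54, 7.55 and 7.65 in maternal and 7.10, 6.87, 6.97 and 7.03 in surrogate-peer arrays. The maternal SD was 0.05 and the surrogate-peer SD 0.10 (n = 5 and n = 4), and the difference -0.58 ± 0.08 (SE; adjusted p = 0.203). POLD1, the catalytic subunit of DNA polymerase delta, was 8.98, 9.10, 9.01, 8.71 and 8.47 against 7.81, 7.65, 7.95 and 8.03 (-0.99 ± 0.14, SE), with -0.10 at its other probe set. TLE3, a Groucho corepressor, was 7.70, 7.99, 8.11, 7.95 and 8.36 against 7.36, 7.18, 7.08 and 7.13 (-0.84 ± 0.13, SE), and -0.18 at its brightest probe set.

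Groups did not overlap for these 3 genes at the probe sets given. TLE1, of the same corepressor family, was nominally lower (-0.99 ± 0.24, SE), as were both of its probe sets. Over the 15 Groucho and HES genes 9 were higher and 6 lower with a median of 0.05, which was -0.008 after centring and -0.03 after quantile normalization. ERGIC1, a protein of the compartment between endoplasmic reticulum and Golgi, was 9.18, 9.59, 9.56, 9.55 and 9.39 in maternal and 8.63, 8.63, 8.80 and 9.02 in surrogate-peer arrays (-0.68 ± 0.12, SE). Its 4 tested probe sets were all negative, while 12 of 16 genes of that transport list were higher, with a median of 0.17.

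APBB2, an adaptor that binds the amyloid precursor protein, was 8.17, 8.17, 7.88, 8.36 and 8.01 against 7.55, 6.76, 6.71 and 7.28 (-1.04 ± 0.18, SE), with all 3 of its probe sets nominally lower. RALGPS2 at its probe set of smallest p, an exchange factor also on the B cell list, gave -1.10 ± 0.18 (SE). The collagen chain COL11A1 was 7.77, 6.66, 7.64, 7.74 and 7.49 against 6.38, 5.92, 6.04 and 6.37 (-1.28 ± 0.23, SE; limma adjusted p = 0.203), and its adjusted p without maternal array 2 was 0.0495. The protein kinase A inhibitor PKIG (-1.06 ± 0.20) and SERTAD1 (-0.62 ± 0.12, SE) completed the 12 lowest p-values with a lower mean, beside TNFRSF13B, MS4A1 and FCRLA.

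Among the genes with a higher mean, XRCC6, the Ku70 protein of DNA end joining, was 9.61, 9.55, 9.51, 9.16 and 9.38 in maternal and 10.22, 10.01, 10.21 and 10.16 in surrogate-peer arrays (0.71 ± 0.11, SE; adjusted p = 0.203). Its brightest probe set gave -0.03, so the probe sets of XRCC6 disagree. PRMT6, an arginine methyltransferase, was 6.48, 6.10, 5.87, 6.25 and 6.05 against 6.87, 6.92, 6.82 and 6.83 (0.71 ± 0.12, SE). NRIP1, a corepressor of nuclear receptors, was 9.03, 8.74, 8.71, 8.49 and 8.62 against 9.31, 9.63, 9.31 and 9.58 (0.74 ± 0.13, SE), with all 3 probe sets nominally higher at 0.57 to 0.86.

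TDP2, which removes trapped topoisomerase from DNA ends, was 9.80, 9.74, 9.76, 9.71 and 9.67 in maternal and 10.42, 10.14, 10.19 and 10.09 in surrogate-peer arrays (0.48 ± 0.09, SE). PECAM1, the CD31 adhesion molecule of platelets, monocytes and some T cells, was 9.27, 8.86, 9.04, 8.42 and 9.11 against 9.71, 9.71, 9.80 and 9.79 (0.81 ± 0.16, SE). The zinc finger gene ZNF12 was higher at all 5 of its probe sets, by 0.47 to 0.75, and GABPB1, a subunit of the GA-binding protein, by 0.47 and 0.48 at its pair of probe sets. NAP1L4, a histone chaperone (0.62 ± 0.11), AVL9 (0.69 ± 0.12), the cytoplasmic actin ACTG1 (0.53 ± 0.09), ABHD10 (0.49 ± 0.09) and ABTB3 (0.84 ± 0.16, SE) made up the rest of the 12. NAP1L4 gave 0.20, ACTG1 0.13, ABHD10 0.30 and ABTB3 0.34 at a brighter probe set. ACTG1, ABHD10 and ABTB3 were not nominally higher there. Of the 5 probe sets of NAP1L4 1 gave -0.09, and 1 of the 4 probe sets of AVL9 gave -0.04. At the probe set of smallest p for AVL9 all 5 maternal values lay below 6.04, the filter on mean level. All 4 surrogate-peer values lay above it. The filter took the mean over all 13 arrays, 6.12 here, so that probe set was tested only through arrays other than the maternal ones.

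**Figure D5:**
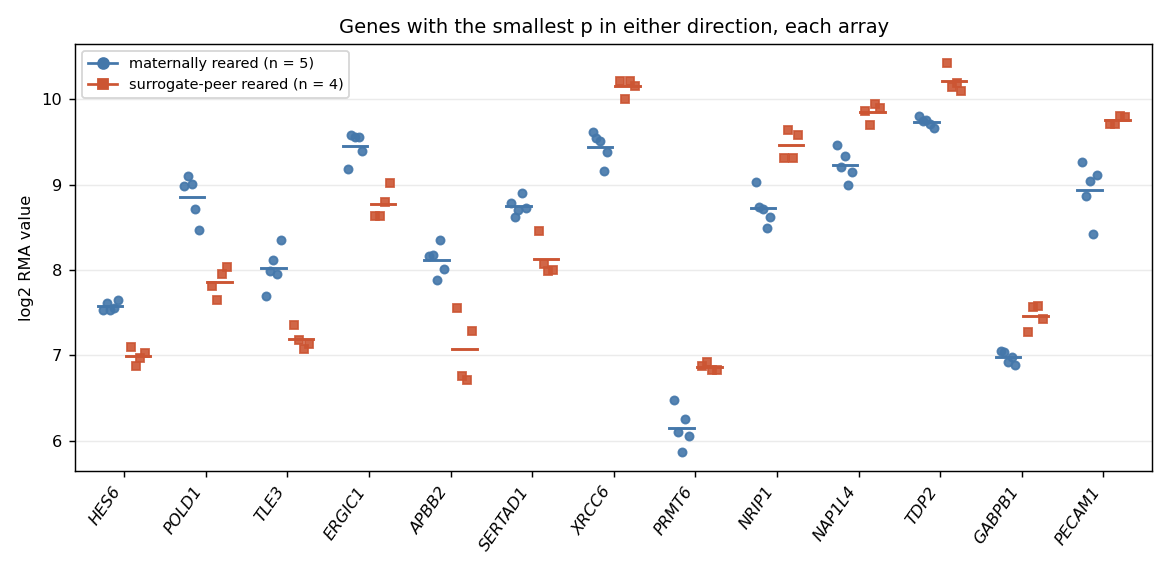
Log2 RMA value of 13 genes among those with the smallest p in each array, at the probe set with the smallest p, with 5 maternal arrays as circles, 4 surrogate-peer arrays as squares and bars for group means. HES6 to SERTAD1 are wholly lower and XRCC6 to PECAM1 wholly higher in surrogate-peer arrays, and XRCC6, POLD1, TLE3 and NAP1L4 differ less at other probe sets.

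The largest differences without overlap at a gene's brightest probe set held, among the higher ones after FCER1A, the Wnt receptor FZD10 (1.21 ± 0.32), SLC35G1 (1.11 ± 0.26), the methionine sulfoxide reductase MSRB3 (1.03 ± 0.21), CDK5R1 (0.94 ± 0.19), OTUD1 (0.92 ± 0.22), ADAMTS6 (0.92 ± 0.21) and EGFL6 (0.91 ± 0.30, SE). FZD10 was 5.86, 6.06, 6.26, 5.65 and 6.20 in maternal and 6.75, 6.63, 8.35 and 7.15 in surrogate-peer arrays. Surrogate-peer array 3 was the highest for FZD10, and the others lay closer to the maternal values. The maternal mean of FZD10, 6.01, lay below 6.04, the filter on mean level, and all 4 surrogate-peer values lay above it. FZD10 was therefore tested only through the arrays in which it was higher. Without maternal arrays 2 and 5 OTUD1 gave 0.60 and EGFL6 0.44. MSRB3 gave -0.10 at its other tested probe set, and the 3 tested probe sets of CDK5R1 ran from 0.02 to 0.94. The lower ones were CRISP3 (-1.66 ± 0.51), GZMH, GZMB, TKTL1 (-1.32 ± 0.42), COL11A1, CD79B, BLNK and OSBPL10 (-1.24 ± 0.41, SE). CRISP3, a secreted protein of neutrophil granules, was 6.26, 7.16, 8.87, 6.42 and 7.38 in maternal and 6.09, 6.10, 4.95 and 5.10 in surrogate-peer arrays, with maternal array 3 the highest. Its surrogate-peer mean of 5.56 lay below the filter, so CRISP3 too was tested only through the arrays in which it was higher.

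Lists of general cell functions lay nearer to the middle of all genes. In the respiratory chain 17 of 22 genes were higher with a median of 0.17, and UQCRFS1, the iron-sulfur protein of complex III, was wholly above (0.44 ± 0.17, SE). Of 15 cytosolic ribosomal proteins 13 were higher, with a median of 0.09, and of 17 heat shock proteins and chaperonins 14, with a median of 0.11. In DNA end joining 10 of 13 were higher with a median of 0.08, which was -0.004 without maternal arrays 2 and 5, and of 13 histone chaperones 10, with a median of 0.15. Of 8 proliferation genes 6 were lower, 0 nominally, with a median of -0.04, and the marker MKI67 differed by -0.23 ± 0.15 (SE).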

How the data were processed

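RNA of peripheral blood mononuclear cells was measured on 1 Affymetrix rhesus array per sample. The authors deposited log2 expression values made with RMA, per the submitters' processing notes; the sources used here do not give its version or settings, nor whether all 13 arrays were processed in 1 run, and any offset between separate runs would enter the fold changes. The log2 scale was taken from the deposited values. Arrays carry no sequencing depth; precision is limited by how many there are.

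Of 52865 probe sets 158 controls were left out, and the 26352 with a mean over the 13 arrays above the median of those means, 6.04, were tested. By the platform annotation 24956 of 52707 non-control probe sets carried 1 gene symbol, 361 several and 27390 none; genes were named only from probe sets with 1 symbol, 15332 (58.2%) of those tested, for 9657 genes, 3579 of them with 2 or more. RefSeq gene identifiers were found for 24629 probe sets and changed 0 symbols.

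The 9 arrays were fitted with limma 3.58.1 (lmFit, eBayes) in R 4.3.3. P-values are two-sided and adjusted over all 26352 probe sets (Benjamini-Hochberg), threshold 0.05; errors of differences are standard errors. Measures of arrays were compared by exact permutation. Named genes were the 12 smallest p-values in each direction (1 probe set per gene, no LOC symbols), the 8 largest differences without overlap in each direction at the brightest probe set, all B cell list members, and up to 10 nominal or non-overlapping members of the other lists. List members named with values though neither nominal nor apart were picked after their values were seen. The 29 lists held 642 genes, 407 of them measured, each at its brightest tested probe set; CCR3, CCR7, CEBPB, CEBPD, FCER1A and GZMB are in 2 lists each. Members and lists were chosen with earlier results of these data known, so lists are described by counts and medians without a test. Statistics were tested on simulated data.

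Alternatives were other filters, centring, quantile normalization, variance models, covariates, averaging of probe sets and left-out arrays. No sequences or genome positions were used.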

Additional observations from a re-analysis of the deposited data

Results flagged for a closer look

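In 328 groups of array values, each a named gene in either the 5 maternal or the 4 surrogate-peer arrays, 14 had a highest or lowest array far from the rest, as measured by its gap to the nearest other array over the range of the group. Chance gives this in about 1 in 20 groups, so these are listed as values only.

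Among B cell and signalling genes, surrogate-peer array 2 was low for BLK (7.88, gap over range 0.942), and surrogate-peer array 1 was low for OSBPL10 (5.64, 0.837) and PIK3AP1 (10.29, 0.850). Maternal array 2 was high for the antigen CD1C (10.33, 0.716) and for PKIG (8.56, 0.739), and low for COL11A1 (6.66, 0.748). Maternal array 1 was high for AVL9 (6.01, 0.755), CDK5R1 (7.29, 0.711) and the coat protein SEC23A (9.28, 0.730). Maternal array 5 was low for IL23A (6.59, 0.7101).

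In the surrogate-peer group, array 4 was low for AVL9 (6.13, 0.876), array 1 was high for SERTAD1 (8.46, 0.834), array 2 was high for CEBPB (12.19, 0.893) and array 3 was high for the GTPase SAR1A (10.91, 0.883).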

How the results depend on the processing

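No paired analysis was possible because the labels give the groups no shared replicate numbers. The count of probe sets past the adjusted limma threshold, 0 of 26352, was 1 with array weights and 6 with the 3' to 5' ratio as a covariate, among them DDX60 and EGLN2, and 0 to 2 with an array left out (2 without maternal array 2, PID1 and COL11A1; 1 without maternal array 5; 1, EGR2, without surrogate-peer array 1). The 1434 probe sets with groups apart were 2287 with no filter, 712 with a stricter filter at a mean of 7.72, 3301 without maternal arrays 2 and 5, and 1586 to 3730 with an array left out, where fewer arrays make separation easier; the highest was without maternal array 1. The B cell difference of -0.73 was -1.10 with the 3' to 5' ratio as a covariate and kept its sign in every alternative run. Signs turned with that covariate for the plasma cell list (0.040), the Groucho and HES list (0.0090, and 0.0016 with the stricter filter alone), the proliferation list (0.14), the adrenergic list (0.058), the inflammatory list, FCMR (-0.25), MCM5 (0.043) and MKI67 (0.087). With the title number as a covariate they turned for the NK list (0.19), the inflammatory list (-0.57) and CD24 (0.58), and, to values near 0, for the platelet, adrenergic and DNA polymerase lists. STAP1, at -0.02, was 0.33 without maternal arrays 2 and 5 and -0.26 to 0.31 with single arrays left out (0.26 without maternal array 2, 0.31 without surrogate-peer array 1). The cause of these shifts was not tested. The covariates overlap little or not at all between groups, so such fits extrapolate. Centring turned the signs of JCHAIN, CD28, TNFAIP3, MAMU-DRA and DUSP1, which lay near 0, and quantile normalization that of JCHAIN. The small list differences of the inflammatory genes and of the DNA polymerases turned from just above to just below 0 under both scalings. Low probe sets near the filter are compressed, which limits their differences.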
